A study of Homo sapiens with 9 samples.

Results

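The genes described are those of the metallothionein family and of zinc export in T47D, an ER+ line of human breast cancer: *MT2A*, *MT1E*, *MT1F*, *MT1M* and *MT1X*, the plasma membrane zinc exporter *SLC30A1*, and *MTF1*, the transcription factor that senses zinc. They were chosen by symbol, and the same choice named *MT1G*, which was not analysed here. This left 7 of 8 genes, out of 27635 symbols in all. RNA of 9 libraries had been sequenced: 3 of T47D cells grown alone (MC), 3 of cells grown in contact with HS5, a human bone marrow stromal line, and then recovered on EpCAM beads (CC), and 3 of cells given medium conditioned by HS5 (CMed). The mixed cultures were seeded at 10% cancer cells to 90% stromal cells. In all groups the last 48 hours were spent in medium low in glucose, to which 1% FBS and 10 nM estradiol had been added, so the MC cells received estradiol too. T47D and HS5 are each a single line. No label tells if replicates came from separate cultures, and the p values therefore measure the spread between these libraries, which may be technical.

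Metallothioneins are small cysteine-rich proteins that bind zinc, copper and cadmium in the cytosol. When free zinc rises, MTF1 enters the nucleus, binds short metal response elements in promoters and raises transcription of metallothionein genes and of *SLC30A1*, whose product moves zinc out of the cell. Metallothionein genes are also known to be raised by cadmium, by glucocorticoids and by interleukin-6.

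The metallothionein genes lie together on chromosome 16 of GRCh38. *MT2A* (ENSG00000125148.6) spans 56608199 to 56609497, *MT1E* (ENSG00000169715.14) 56625475 to 56627112, *MT1M* (ENSG00000205364.3) 56632233 to 56633986, *MT1F* (ENSG00000198417.6) 56657694 to 56660698 and *MT1X* (ENSG00000187193.8) 56682424 to 56684196, all on the plus strand. *SLC30A1* (ENSG00000170385.9, 211571568 to 211578742) and *MTF1* (ENSG00000188786.9, 37809567 to 37859620) lie on the minus strand of chromosome 1. Promoters, taken as 250 bases before to 50 bases from the start of the gene, were found for 4 of the 8 genes in RefSeq on GRCh38.p14. The gene spans above are from GENCODE, whose starts differ from those of RefSeq: that of *MT2A* lies 385 bases and that of *MT1X* 46 bases farther downstream in RefSeq, and that of *SLC30A1* 419 bases farther upstream. The promoters of *MT2A* (chr16:56608334-56608633, plus strand), *MT1X* (chr16:56682220-56682519, plus strand) and *SLC30A1* (chr1:211579112-211579411, minus strand) are shown because they hold letters of the element through which zinc is known to act on these genes. Each reads 5′ to 3′ along its gene, and capitals mark every match, on either strand, to the core of the metal response element, searched as TGCACNC and TGCGCNC with N any base.
MT2A: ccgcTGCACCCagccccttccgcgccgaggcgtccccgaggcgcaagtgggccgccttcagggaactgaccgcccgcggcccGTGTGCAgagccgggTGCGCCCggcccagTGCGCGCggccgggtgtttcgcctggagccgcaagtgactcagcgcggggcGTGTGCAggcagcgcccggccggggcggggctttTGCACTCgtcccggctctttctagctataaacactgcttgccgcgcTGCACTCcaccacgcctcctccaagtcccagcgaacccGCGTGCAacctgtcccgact
MT1X: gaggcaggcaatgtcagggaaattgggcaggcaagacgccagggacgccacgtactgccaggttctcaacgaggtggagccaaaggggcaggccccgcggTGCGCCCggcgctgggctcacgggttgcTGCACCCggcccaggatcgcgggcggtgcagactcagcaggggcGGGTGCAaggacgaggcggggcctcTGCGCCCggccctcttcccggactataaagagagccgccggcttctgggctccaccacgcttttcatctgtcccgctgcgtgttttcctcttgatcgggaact
SLC30A1: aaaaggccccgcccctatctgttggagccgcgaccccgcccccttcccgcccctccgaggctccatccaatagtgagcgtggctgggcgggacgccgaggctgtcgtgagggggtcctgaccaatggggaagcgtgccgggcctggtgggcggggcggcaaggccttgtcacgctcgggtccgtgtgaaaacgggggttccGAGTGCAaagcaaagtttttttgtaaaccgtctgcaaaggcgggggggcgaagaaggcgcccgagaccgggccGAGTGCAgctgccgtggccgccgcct

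In the *MT2A* promoter, 8 matches were found at separate positions, from 246 bases before the RefSeq start (TGCACCC) to 31 bases into the gene (GCGTGCA, a match on the opposite strand). *MT1X* had 4 matches, all before its start, and *SLC30A1* had 2, both with the same bases (GAGTGCA). No match was found in the *MTF1* promoter. Of 35116 promoters of the same length, some of which belong to the same gene, 29.6% held at least 1 match, 8.6% at least 2, 0.601% at least 4 and 0.0199%, or 7 promoters, at least 8. *MT1H*, another metallothionein gene of the cluster, was among these 7 with 8 matches. A match describes letters in this window and does not show that MTF1 binds there.

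**Figure D1:**
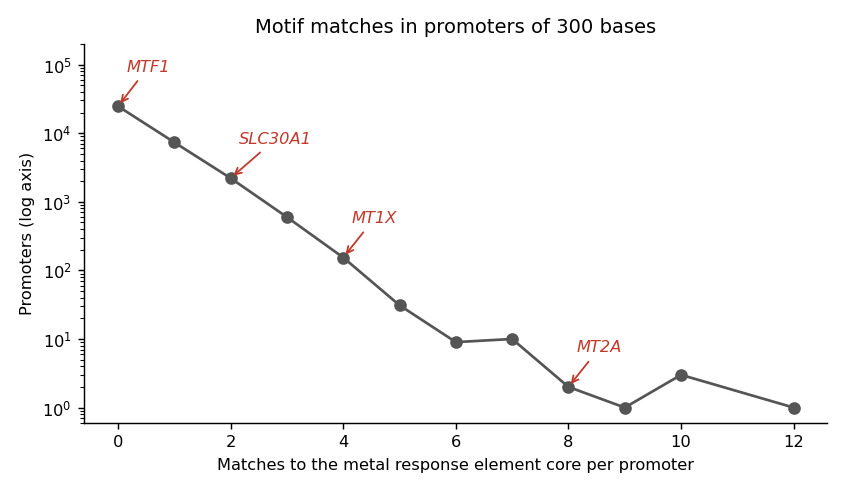
Number of promoters (log axis) by their number of matches to the metal response element core, over 35116 promoters of 300 bases. *MT2A* sits in the sparse tail with 8 matches, *MT1X* has 4, *SLC30A1* 2 and *MTF1* 0.

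*MT2A* was the main metallothionein transcript in all 9 libraries, and it did not pass the test in any comparison. Levels are in TPM, by definition a transcript abundance corrected for length and scaled to one total per library, so that genes can be compared. The values used here summed to 884208 to 909618 per library and were not rescaled for the main fit. *MT2A* was listed at 59.6, 108 and 89.3 TPM in the MC libraries (replicates 1, 2 and 3), 86.9, 53.4 and 86.0 TPM in CC and 79.9, 65.4 and 77.2 TPM in CMed. The 3 groups overlapped, and the highest library was 2.02 times the lowest. Mean levels were 85.6 ± 24.4 TPM for MC, 75.4 ± 19.1 TPM for CC and 74.2 ± 7.69 TPM for CMed (SD, n = 3 each), and no neighbours in this order differed beyond their spread. In rank among all symbols of a library, *MT2A* stood between place 834 and place 1536.

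*MT1X*, which encodes another zinc-binding metallothionein, was the only other one detected in most libraries. It was at 10.3, 7.475 and 4.83 TPM in MC, 5.47, 2.43 and 2.78 TPM in CC and 1.66, 0 and 9.53 TPM in CMed. MC was at the upper end, but CC replicate 1 lay above MC replicate 3, and CMed replicate 3 lay far above the other 2 libraries of its group. As a share of *MT2A*, *MT1X* made up 5.40% to 17.25% in MC, 3.24% to 6.29% in CC and 0% to 12.35% in CMed.

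The remaining metallothioneins were close to or at 0. *MT1E* was listed at 1.03 TPM in CC replicate 3 and at 0 in the other 8 libraries. *MT1F* was at 2.82 TPM in MC replicate 2, at 0.9225 TPM in CC replicate 1 and at 0 in the other 7. *MT1M* was at 0.481 TPM in MC replicate 3 and at 0 elsewhere. No group had more than 1 library above 0 for any of these genes. Of 14 further metallothionein genes and pseudogenes, 1 was in the table analysed here, the pseudogene *MT1JP*, at 0.199 TPM in CC replicate 3 and at 0 in the others. *MT1E* and *MT1JP* were thus above 0 in the same single library. Summed over the metallothioneins, the level was 69.9 to 118 TPM in MC, 55.8 to 93.3 TPM in CC and 65.4 to 86.7 TPM in CMed, and *MT2A* made up 85.3% to 100% of it. Metallothionein genes are close in sequence and their transcripts are short (the shortest annotated one of *MT1M* has 232 bases, that of *MT2A* 416). How reads that match several copies were assigned is not stated in the labels or methods, so the split between the members is uncertain. The table holds no read counts, and the counting error behind these low values is unknown.

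**Figure D2:**
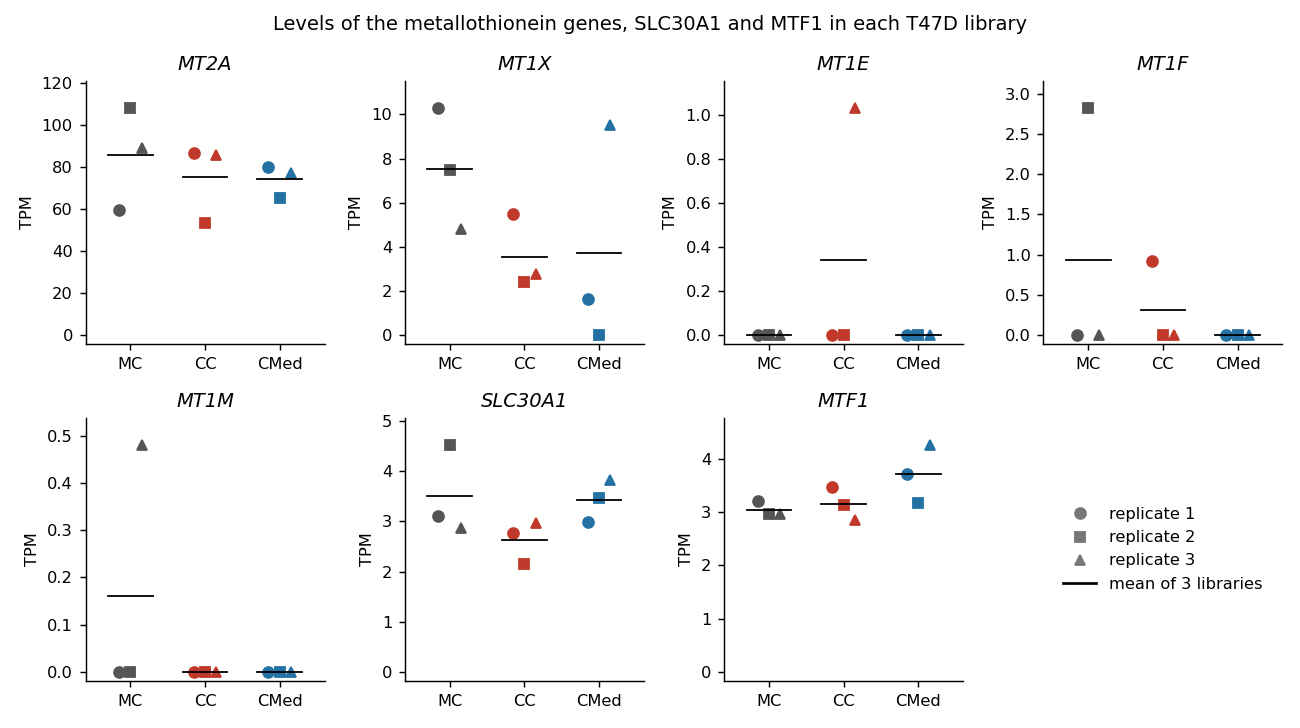
Level of each gene in TPM (linear axes, 1 scale per gene) in the 3 libraries of each of MC, CC and CMed, with the mean as a line. *MT2A* lies between 53.4 and 108 TPM with overlapping groups, *MT1X* is spread from 0 to 9.53 TPM within CMed alone, and *MT1E*, *MT1F* and *MT1M* are above 0 in 1 or 2 libraries.

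*SLC30A1*, the exporter, was at 3.115, 4.53 and 2.87 TPM in MC, 2.77, 2.16 and 2.96 TPM in CC and 2.999, 3.47 and 3.825 TPM in CMed. Every CC library lay below every CMed library, though replicate 3 of the former and replicate 1 of the latter nearly met. Among all genes tested, 9.93% were lower in CC than in CMed without overlap and 12.4% higher. Against MC, both groups overlapped. Mean levels were 3.50 ± 0.894 TPM for MC, 2.63 ± 0.420 TPM for CC and 3.43 ± 0.414 TPM for CMed (SD, n = 3 each).

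*MTF1*, the zinc sensor, was at 3.199, 2.955 and 2.96 TPM in MC, 3.46, 3.13 and 2.85 TPM in CC and 3.70, 3.17 and 4.255 TPM in CMed. It varied least of the 4 genes tested, by 1.49 times between the lowest and the highest library. Mean levels were 3.04 ± 0.139 TPM for MC, 3.15 ± 0.305 TPM for CC and 3.71 ± 0.544 TPM for CMed (SD, n = 3 each), and the groups overlapped.

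Groups were compared as log2(TPM + 1) with limma over the 16696 genes with at least 0.5 TPM in at least 3 libraries, a filter that 4 of the 7 genes passed (*MT2A*, *MT1X*, *SLC30A1* and *MTF1*). In CC against MC, 4.99% of all genes tested had an adjusted p under 0.05 (2.15% higher and 2.84% lower), and 0 of the 4 did. In CMed against MC, 1.38% of all genes (0.707% higher and 0.677% lower) and 0 of the 4 passed. In CC against CMed, 0.371% of all genes (0.21% higher and 0.162% lower) and 0 of the 4 passed. Under relative log expression scaling the genes called numbered 440 higher and 301 lower in CC against MC (359 and 474 as fitted), and 146 and 53 in CMed against MC (118 and 113 as fitted), with 0 of the 4 among them. Before adjustment, 0 of the 4 had a p under 0.05 in any of the 3 comparisons as fitted. Both comparisons with MC share its libraries and are not independent of each other.

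For *MT2A* the difference from MC was −0.17 in CC (standard error 0.26, 95% interval −0.76 to 0.41, adjusted p = 0.770 from limma). Taken back from the log scale, this interval runs from 0.592 to 1.33 times the MC level. In CMed the difference was −0.17 as well (95% interval −0.75 to 0.41, adjusted p = 0.803). MC replicate 2 held the highest level of *MT2A*, of *SLC30A1* and of *MT1F*. Across genes its Pearson's r with the other MC libraries was 0.924 and 0.918, beside 0.958 between those. Without it, the *MT2A* difference was 0.01 in CC (adjusted p = 0.982) and 0.02 in CMed (adjusted p = 0.979).

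*MT1X* had the widest intervals of the 4. Its difference from MC was −0.91 in CC (standard error 0.72, 95% interval −2.52 to 0.70, adjusted p = 0.535 from limma) and −1.44 in CMed (95% interval −3.05 to 0.17, adjusted p = 0.371). The libraries of CMed that stood at 9.53 TPM (replicate 3) and at 0 (replicate 2) each moved the CMed values. The 3 groups share 1 estimate of the spread, so these libraries also entered the interval of CC against MC. With only CC and MC fitted, its standard error was 0.35 and its 95% interval −1.73 to −0.09. The p from limma was then 0.034 before and 0.244 after adjustment. Without replicate 2, the difference between CMed and MC was −0.64 (adjusted p = 0.684 from limma). Without replicate 3, the difference between CMed and MC was −2.33 (adjusted p = 0.112 from limma), and CC lay above CMed by 1.43 (adjusted p = 0.437), against 0.53 with all libraries (adjusted p = 0.829). None of these differences passed the threshold.

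*SLC30A1* differed from MC by −0.30 in CC (standard error 0.21, 95% interval −0.78 to 0.18, adjusted p = 0.490 from limma) and by −0.01 in CMed (95% interval −0.49 to 0.47, adjusted p = 0.989). Between CC and CMed, whose libraries did not overlap, the difference was −0.29 (95% interval −0.77 to 0.19, adjusted p = 0.646). *MTF1* differed by 0.04 in CC (95% interval −0.38 to 0.45, adjusted p = 0.942) and by 0.22 in CMed (95% interval −0.20 to 0.63, adjusted p = 0.618). These intervals leave room for changes of either sign, and the pseudocount of 1 shrinks differences of genes at a few TPM.

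**Figure D3:**
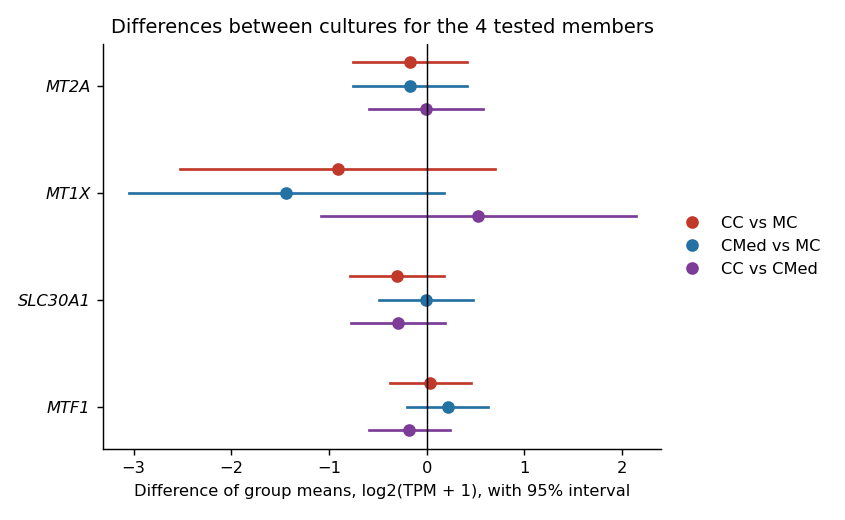
Difference of group means on the log2(TPM + 1) scale with its 95% interval from limma, for the 4 genes tested in 3 comparisons. All 12 intervals cross 0, and those of *MT1X* are the widest (−3.05 to 0.17 for CMed against MC).

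Over the 9 libraries, Pearson's r of log2(TPM + 1) was 0.563 between *MT2A* and *SLC30A1*, 0.271 between *MT2A* and *MT1X* and −0.108 between *MT2A* and *MTF1*. These are descriptions, since the libraries share conditions. Among 12676 genes with a mean log2(TPM + 1) of at least 1, the pattern most like the mean of *MT2A* and *MT1X* was that of *STARD3NL* (r = 0.974), followed by *CHCHD10* (r = 0.947), *CYB561D2* (r = 0.941), *RCHY1* (r = 0.926) and *COQ6* (r = 0.916). The most opposite were *BMS1P2* (r = −0.919), *Z68871.1* (r = −0.916), *DIXDC1* (r = −0.910), *VPS53* (r = −0.908) and *PDXDC2P* (r = −0.8985). *STARD3NL* was lowest in replicate 2 of CC and of CMed, at 6.16 and 6.12 TPM, and highest in replicate 2 of MC, at 12.8 TPM. For *SLC30A1* the nearest were *OBSL1* (r = 0.9615), *CBFA2T3* (r = 0.961) and *TENT5B* (r = 0.959), and for *MTF1* they were *ITPRID2* (r = 0.924), *LPIN1* (r = 0.911) and *FBRSL1* (r = 0.903). With so many genes and 9 libraries, values of this size are picked from the extremes.

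Most SLC30 proteins move zinc out of the cytosol, across the plasma membrane or into vesicles, and SLC39 proteins move it in. Exporter and importer are used here as names of the gene lists, and transport was not measured. Of 10 other exporter genes, 5 were tested, and 0 passed the threshold of limma in any comparison. Before adjustment, 1 had a p under 0.05 in CC and 1 in CMed, each against MC, and 0 did in CC against CMed, beside 20.3%, 15.7% and 12.2% of all genes tested. *SLC30A9* was at 12.85, 13.15 and 13.4 TPM in MC, 8.39, 11.2 and 10.5 TPM in CC and 7.44, 8.66 and 8.04 TPM in CMed. Both groups lay below MC without overlap (difference −0.37, adjusted p = 0.254, and −0.65, adjusted p = 0.105). Of all genes tested, 15.3% were lower and 9% higher in CC than in MC without overlap, and 14.2% lower and 6.67% higher in CMed than in MC. *SLC30A7*, which loads zinc into the secretory pathway, was at 5.95 ± 0.476 TPM in MC and 4.04 ± 0.3385 TPM in CC (SD, n = 3 each; difference −0.46, adjusted p = 0.1795 from limma). The most abundant of the 5 in MC was *SLC30A5* with 13.5 ± 4.91 TPM, beside 9.925 ± 2.30 TPM in CC (SD, n = 3 each; adjusted p = 0.544 from limma). The median difference of the 5 was −0.37 in CC against MC, beside −0.08 over all genes, and −0.18 beside −0.10 in CMed against MC.

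Of 14 importer genes, 12 were tested and 1 was lower in CC than in MC, beside 2.84% of all genes. This was *SLC39A4*, which encodes ZIP4, a plasma membrane zinc importer. It was at 17.95, 24.4 and 14.99 TPM in MC, 6.20, 11.5 and 8.05 TPM in CC and 11.1, 14.0 and 15.8 TPM in CMed. All CC libraries lay below all MC libraries (difference −1.08, standard error 0.26, adjusted p = 0.0469 from limma). With 1 library left out, the call remained only when that was CC replicate 2, and the adjusted p otherwise reached 0.1605. Over all 20 alternatives it was called in 4, and under none of the 3 other scalings between libraries. In CMed the difference was −0.45 (adjusted p = 0.443), and CC was not shown to differ from CMed (−0.63, adjusted p = 0.364). *SLC39A6*, known as the estrogen-regulated gene LIV-1 of luminal breast cancer, averaged 30.65 ± 3.095 TPM in MC, 35.8 ± 2.58 TPM in CC and 33.4 ± 2.98 TPM in CMed (SD, n = 3 each; adjusted p = 0.473 and 0.7475 against MC from limma). *SLC39A1* averaged 26.0, 25.5 and 22.9 TPM in the same order. *SLC39A14*, which interleukin-6 is known to raise in mouse liver, averaged 2.89, 3.12 and 1.865 TPM (adjusted p = 0.858 and 0.589 against MC). Of the 12 importers, 0 passed limma's threshold in CMed against MC or in CC against CMed, where 0 and 2 had an unadjusted p under 0.05, beside 15.7% and 12.2% of all genes.

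**Figure D4:**
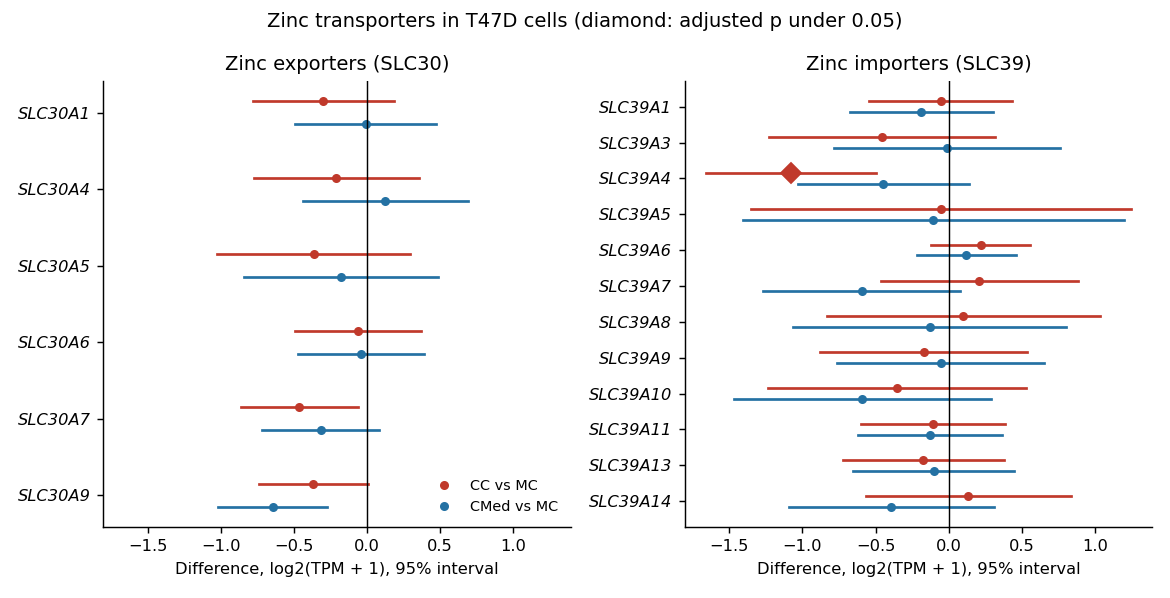
Difference from MC on the log2(TPM + 1) scale with its 95% interval for the zinc exporters and importers tested, in CC (red) and in CMed (blue). The diamond marks *SLC39A4* in CC (−1.08), the only gene shown with an adjusted p under 0.05.

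Genes described as further targets of MTF1, mostly in the mouse, gave 1 call among 8 tested in CC against MC, beside 4.99% of all genes. *SLC40A1*, which encodes the iron exporter ferroportin, was at 59.2, 54.4 and 67.6 TPM in MC, 31.4, 31.4 and 33.7 TPM in CC and 61.9, 51.9 and 55.4 TPM in CMed. It fell in CC (difference −0.88, standard error 0.15, adjusted p = 0.0114 from limma), except that without CC replicate 3 the adjusted p was 0.0563. In CMed its difference was −0.09 (adjusted p = 0.805), and CC against CMed gave −0.79 (adjusted p = 0.0690). *GCLC*, which encodes the catalytic subunit for the first step of glutathione synthesis, averaged 11.4 ± 3.01 TPM in MC and 7.81 ± 1.24 TPM in CC (SD, n = 3 each; adjusted p = 0.273 from limma). *NDRG1*, a stress-responsive gene, was on the other side, at 0.714, 1.78 and 0.156 TPM in MC and 2.85, 1.88 and 2.33 TPM in CC without overlap (difference 0.91, adjusted p = 0.178 from limma). Over the 8 genes the median difference in CC was −0.37, beside −0.08 over all genes. The list was not split by the direction in which MTF1 acts on each gene, so this median does not measure MTF1 activity. It also holds *SLC39A10*, which is counted among the importers too. By promoter letters instead, 107 tested genes had at least 4 matches to the element core. Of these, 2 were higher (*CSF2RA*, *INSIG1*) and 2 lower (*RPA1*, *SUMO2*) in CC than in MC, or 3.74% beside 4.99% of all genes. *CSF2RA* was higher in CMed too, or 0.935% beside 1.38%. The share depended on the cutoff. With at least 1, 2 or 3 matches (4675, 1552 and 426 tested genes), 5.56%, 5.8% and 7.28% were called in CC against MC. In CMed against MC these shares were 1.41%, 1.55% and 1.41%.

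Copper is another metal that metallothioneins bind. Of 11 copper handling genes tested, 1 was called in CC and 2 in CMed against MC, beside 4.99% and 1.38% of all genes. *CP*, which encodes the copper-carrying plasma protein ceruloplasmin, was at 5.48, 11.9 and 6.27 TPM in MC, 46.4, 35.2 and 44.6 TPM in CC and 47.4, 48.7 and 45.7 TPM in CMed. It rose in both (difference 2.34, adjusted p = 0.00135, and 2.51, adjusted p = 0.00172 from limma), and no library of either group overlapped MC. *COX17*, a copper chaperone of mitochondria, averaged 343.5 ± 51.8 TPM in MC and 196.5 ± 14.0 TPM in CMed (SD, n = 3 each; difference −0.79, adjusted p = 0.0333 from limma). With 1 library left out, this call remained only when that was MC replicate 2, CC replicate 1 or CC replicate 2, and the adjusted p otherwise reached 0.148. *ATOX1*, a cytosolic copper chaperone, averaged 92.2 TPM in MC and 125.5 TPM in CMed (adjusted p = 0.238).

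Genes listed for other known inducers of metallothioneins moved in part. *CEBPD*, a transcription factor gene induced by interleukin-6 through STAT3, was at 8.89, 7.01 and 7.96 TPM in MC, 79.1, 44.0 and 63.7 TPM in CC and 66.9, 61.5 and 71.9 TPM in CMed (difference 2.79, adjusted p = 2.06e-04, and 2.92, adjusted p = 2.94e-04 from limma). It was the 1 gene of 8 in the interleukin-6 and STAT3 list past the threshold in either comparison, where 4.99% and 1.38% of all genes were. Short of it, *BCL3* and *SOCS3* were higher than MC without overlap in CC and in CMed, beside 9% and 6.67% of all genes. Their adjusted p from limma was 0.164 to 0.186, and *SOCS3* was at most at 0.803 TPM. *IL6ST* was higher without overlap in CMed only (adjusted p = 0.158). The genes of the list not named here overlapped MC in both. From the glucocorticoid list, which is not limited to responsive genes and holds the receptor gene *NR3C1*, 7 genes were tested. Of these, *SGK1* was higher in CC (0.739 TPM in MC and 4.26 TPM in CC on average, difference 1.59, adjusted p = 0.0257 from limma). *FKBP5* was lower (24.6 and 10.01 TPM, difference −1.20, adjusted p = 0.00956), beside 2.15% of all genes higher and 2.84% lower. *SGK1* lost its call without MC replicate 1 or 3 or any 1 CC library (adjusted p at most 0.0942), and *FKBP5* without CC replicate 3 (0.0605). *FKBP5* was also lower in CMed, the 1 of these 7 called there beside 1.38% of all genes (difference −0.96, adjusted p = 0.0497), a call that with 1 library left out remained only when that was MC replicate 2 (adjusted p otherwise at most 0.170).

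Among 9 tested genes of the response to metals and oxidants, *NQO1*, a target of the oxidant sensor NRF2, was higher in CC, with 226 TPM in MC and 412.5 TPM in CC on average (difference 0.89, adjusted p = 0.0288 from limma), the 1 call of the 9 beside 4.99% of all genes. With 1 library left out, the call remained only when that was MC replicate 2, CMed replicate 2 or CMed replicate 3 (adjusted p otherwise at most 0.119). *HMOX1*, the heme oxygenase gene that cadmium induces, was at 0 to 0.461 TPM over all libraries and was not tested.

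Genes beside the metallothionein cluster on chromosome 16 were tested as well. *HERPUD1*, a gene of the endoplasmic reticulum stress response, was at 23.7, 48.7 and 23.2 TPM in MC, 113, 107 and 111 TPM in CC and 40.95, 34.3 and 39.7 TPM in CMed. It rose in CC (difference 1.85, adjusted p = 0.00542 from limma), and CC against CMed gave 1.51 (adjusted p = 0.0559). *OGFOD1* averaged 52.35, 41.7 and 48.7 TPM in MC, CC and CMed and did not pass the test against MC (adjusted p = 0.436 and 0.821 from limma).

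In bulk RNA, fewer cells of a type and less RNA per cell cannot be told apart. Of 20 luminal markers, 20 were above 0 in every library of CC and of CMed, and 19 in every MC library, but 4 were called in CC against MC, beside 4.99% of all genes. *GATA3*, a luminal transcription factor gene, was at 936, 1080 and 886 TPM in MC and 463.5, 562 and 499 TPM in CC (difference −0.93, adjusted p = 0.00584 from limma). *TFF1*, *MUC1* and *KRT7* were higher in CC (differences 2.64, 1.54 and 0.96, adjusted p = 0.00198, 0.0380 and 0.0425). With 1 library left out, the call of *MUC1* remained only without MC replicate 2 or CC replicate 2 and that of *KRT7* only without MC replicate 2 or CMed replicate 2 (adjusted p otherwise at most 0.133 and 0.130).

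Of 26 stromal markers, 16 were above 0 in every CC library, 11 in every MC library and 9 in every CMed library. Over all symbols, CC libraries also held more above 0 than MC libraries, as given below. Their summed level was 58.3 to 74.3 TPM in CC, 49.4 to 56.6 TPM in MC and 33.6 to 42.2 TPM in CMed. *S100A4*, at 30.2 to 35.0 TPM in MC, made up much of this sum. The sums were also taken without it, a choice made after its values were seen. They were then 39.8 to 41.3 TPM in CC, 19.2 to 21.6 TPM in MC and 17.7 to 19.8 TPM in CMed. CC lay above both other groups without overlap, with and without *S100A4*. *FN1*, *VIM* and *CAV1*, described next, made up most of the CC sum without *S100A4*.

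Of 10 stromal markers tested, 3 were higher and 1 lower in CC than in MC, beside 2.15% and 2.84% of all genes. *VIM*, which encodes vimentin, was at 11.7, 6.28 and 9.20 TPM in CC and at 0.135 to 1.25 TPM in MC (adjusted p = 0.00288 from limma). *CAV1*, which encodes caveolin 1, was at 2.98, 2.63 and 1.89 TPM in CC and at 0 in all MC libraries (adjusted p = 0.00164). In CMed, *VIM* was at 0.343 to 0.914 TPM and *CAV1* at 0 to 0.0756 TPM. Alone of the 10, both were called in CC against CMed (differences 2.69 and 1.76, adjusted p = 0.0103 and 0.00867 from limma), beside 0.21% of all genes higher. Each was called in 6 of 9 fits with 1 library left out (adjusted p otherwise at most 0.0752 and 0.0695). *FN1*, which encodes fibronectin, was at 15.96, 21.96 and 19.5 TPM in CC and 8.515, 5.09 and 9.91 TPM in MC (adjusted p = 0.0203, lost without MC replicate 1, CC replicate 2 or CC replicate 3, at most 0.0945). *MCAM* was the lower one (difference −1.32, adjusted p = 0.0221), and lost its call without MC replicate 1 or 3 or any 1 CC library (adjusted p at most 0.09385). *PDGFRA* and *PDGFRB* were at 0 in all CC and CMed libraries and each in 2 of 3 MC libraries. Mitochondrial and ribosomal RNA genes took 16.7% to 20.5% of a library in MC, 21.5% to 22.4% in CMed and 23.4% to 26.1% in CC, and the groups did not overlap. Symbols above 0 numbered 18166 to 19654 in MC, 19476 to 20054 in CMed and 19784 to 21178 in CC. Rescaled without mitochondrial and ribosomal RNA genes, 0 of the 4 members tested were called in any comparison. The part of stromal RNA in the values of *MT2A*, the other members and the listed genes was not tested, and HS5 cells alone were not analysed here.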

How the data were processed

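RNA of T47D cells was sequenced as stranded total RNA with paired ends of 100 bp. Trim Galore 0.5.0 and STAR 2.6.0 appear in the notes of the submitters. The authors deposited 1 value per symbol and library, taken here for natural log values, ln(TPM + 1): returned to TPM, the 9 libraries then sum to 884208 to 909618, and to 120543 to 127236 if taken for log2. Build, annotation and quantification program: not given in the sources used here. Values were returned to TPM, 160 rows named by RNA families were left out, and rows of 481 symbols with several rows were summed, which left 27635 symbols. The table gives no read counts, so depth is unknown, and 18166 to 21178 symbols were above 0 per library. Across the genes tested, Pearson's r between replicates was 0.918 to 0.968, and no 2 libraries were identical.

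Log2(TPM + 1) of 16696 symbols (at least 0.5 TPM in at least 3 libraries) was fitted with limma 3.58.1 in R 4.3.3, with 1 coefficient per group over all 9 libraries, an intensity trend and robust empirical Bayes. P values are 2-sided, adjusted by Benjamini and Hochberg over all symbols tested, with a threshold of 0.05, and intervals are 95% intervals of limma. The fit was tested on simulated data. The study's methods state a log fold change of at least 2 beside an adjusted p, which was used as an alternative. The other alternatives were pseudocounts of 0.1 and 5, other filters and scalings, a fit to 2 groups at a time, a replicate block, the largest row per symbol and each library left out in turn. Genes named are the 8 members, the genes of each list past the threshold, up to 4 others of a list with the highest mean TPM, and those with the nearest patterns. *SLC39A14*, *HMOX1*, *PDGFRA*, *PDGFRB*, *NDRG1*, *SOCS3*, *MT1H* and the promoter genes *CSF2RA*, *INSIG1*, *RPA1* and *SUMO2* fall outside this rule and were chosen after their values were seen. The result of 1 listed gene is not reported here. The members and lists were chosen with earlier results of these data known. Symbols were matched to GENCODE release 29 (GRCh38) for coordinates and to RefSeq (GRCh38.p14) for promoters. Other steps ran in Python 3.11.15.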

Additional observations from a re-analysis of the deposited data

How the results depend on the processing

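For *MT2A*, *MT1X*, *SLC30A1* and *MTF1*, none of the 12 comparisons passed the threshold in the main fit or in any of the 20 alternatives, so their differences are estimates with intervals and not shown to be absent. The sign of the *MT2A* difference turned in 2 of 20 alternatives for contact culture against monoculture (range −0.41 to 0.06) and in 1 of 20 for conditioned medium against monoculture (−0.41 to 0.02). *MT1X* against monoculture kept its sign in all 20, between −1.19 and −0.54 in contact culture and between −2.61 and −0.64 in conditioned medium.

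Over all genes, calls in contact culture against monoculture (833), conditioned medium against monoculture (231) and contact culture against conditioned medium (62), and in the 8 pathway and neighbour lists together (13), depended more on the settings, and the cause was not tested. In that order they numbered 520, 125, 28 and 7 with no filter on low values, 131, 75, 18 and 4 with a log2 fold change of at least 2, and 319, 111 and 97 with only the 2 groups compared. With the replicate number as a block they were 509, 102, 22 and 7. Over all genes tested, deviations from group means correlated at r of −0.042 to 0.109 between libraries with the same number. Between libraries with other numbers r was −0.119 to 0.138. With means of 3 libraries and no label on pairing, this cannot decide if the numbers pair libraries. The block called none of the 4 members. Leaving out 1 library gave 244 to 1727, 72 to 1013, 15 to 208 and 5 to 27 calls, each highest without monoculture replicate 2, and lowest without contact culture replicate 3 (244 and 5) or conditioned medium replicate 1 (72 and 15). Relative log expression scaling turned the split in contact culture against monoculture from 359 higher and 474 lower to 440 and 301, and moved the median of all genes in conditioned medium against monoculture from −0.10 to 0.01. Of 24 calls of list and marker genes, 7 held in all 20 alternatives (*CP*, *CEBPD* and *TFF1* in both comparisons with monoculture, *VIM* in contact culture). DESeq2 was not run because it needs read counts.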
